A study of Saccharomyces cerevisiae with 7 samples.

Results

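Most of the glucose was still in the medium at 11.5 h and 13.5 h. Some genes for the cell surface, glucose uptake and carbon reserves already stood apart from the reference in budding yeast. The cell wall list as a whole had a median difference of only 0.03 between the later and the early arrays. The polyamine exporter gene TPO2, the membrane stress protein gene HSP30 and the cell wall genes SPI1, YGP1 and CWP1 were at least 2-fold above the reference at both 11.5 h and 13.5 h. The carbonic anhydrase gene NCE103 was about 4-fold below the reference on both of those arrays, with log2 ratios of -2.32 at 11.5 h and -2.04 at 13.5 h. Genes of glycogen and trehalose metabolism and of ribosome assembly stood apart at 13.5 h and much less at 11.5 h. Only 1 gene, AGP2, passed the test of the later against the early arrays.

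The comparison set the mean of the 11.5 h and 13.5 h arrays against the mean of the 0 h and 9.5 h arrays in a time course of Saccharomyces cerevisiae growing on glucose. At 11.5 h the culture was at 0.80 OD with 17.6 g/L glucose, and at 13.5 h at 1.8 OD with 14.0 g/L. At 0 h it was at 0.14 OD with 19 g/L, and at 9.5 h at 0.46 OD with 18.7 g/L. These were 4 of the 7 arrays of the course, and all genes with a value on all 4 were used, 4997 of 5470. No measured value chose the genes, beyond the need for 4 values. The labels give no strain, genotype or medium.

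Each array carried total RNA in 2 channels, the culture at its time and a common reference, which on every array is labelled 0.14 OD and 19 g/L glucose. Values below are log2 ratios of culture over reference, centred on each array's median, so 1 is 2-fold above the reference and -1 is 2-fold below. That direction is likely and not certain, because the dyes are not named and it rests on the channel order of the labels. There were no replicates: each time point had 1 array, and since every array has a lot of its own, lot and time cannot be told apart. Time, OD and glucose moved together and cannot be told apart either. A pair of time points stands in for replicates in the test, so its p-values measure the spread between the times of a pair and not between cultures.

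Yeast given plenty of glucose ferments it to ethanol and grows fast. Sensors of external glucose tune the hexose transporters, and repressors such as Mig1 keep genes for other sugars and for respiration low. Fast growth rests on a large output of ribosomes, driven by the TOR and protein kinase A pathways, which also hold down the stress response genes under the activators Msn2 and Msn4. Glycogen and trehalose are the reserve carbohydrates, which yeast is known to lay down before its glucose runs out.

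The 0 h array carried the same label in both channels and shows how far values stray from 0 with no labelled difference. Of the 4997 genes, 4665 lay within 0.5 of the reference there, 44 were at least 2-fold below it and 0 were 2-fold above. The 9.5 h array had 26 genes 2-fold above and 71 below, the 11.5 h array 28 and 16, and the 13.5 h array 78 and 28. Across probes the early arrays correlated with each other (r = 0.60), as did the later ones (r = 0.53), while the 4 correlations between an early and a later array were 0.14 to 0.22. The 13.5 h array correlated more with the 15.5 h array (r = 0.72) than with the 11.5 h array, which had r = 0.40 with 15.5 h. Repeated spots of a gene differed most on the 9.5 h array, with an SD of 0.41, against 0.21 at 0 h, 0.23 at 11.5 h and 0.19 on the 13.5 h array. The 44 genes 2-fold below at 0 h had medians of 0.16 at 11.5 h and -0.30 at 13.5 h, against -0.96 at 9.5 h.

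The first question was which genes differed between the later and the early arrays. In the limma test across all genes, with Benjamini-Hochberg adjustment, 1 gene was higher (0.02% of those tested) and 0 were lower (0%). At an unadjusted p under 0.05 there were 643 higher (12.9%) and 357 lower (7.14%). By size, 95 genes were at least 2-fold higher with both later values above both early ones (1.9%), and 10 were at least 2-fold lower without overlap (0.2%). With no demand on size, 1445 genes did not overlap on the higher side (28.9%) and 1252 on the lower side (25.1%). Just inside the 2-fold line were GAS2 and RSB1, each at 1 after rounding, and, on the other side, AHC1 and LYS21 at -1.03. Just outside it were IAI11 at 0.99, MRPL35 at 0.98, and FMP45 and TOD6 at -0.98. The limma counts rested on each array: they were 35 higher and 13 lower without 0 h, 20 and 2 without 9.5 h, 259 and 211 without 11.5 h, and 214 and 30 without 13.5 h. The 10 genes lower by size became 50 without 0 h, 19 without 9.5 h and 48 without 11.5 h, where 3 arrays must be free of overlap and not 4.

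The 95 higher genes were divided, after the values were seen, by which pair of arrays departed farther from the reference. In 30 of them the mean of the later arrays lay farther from the reference, and in 65 the mean of the early arrays did. Of the 95, 69 stood at -0.5 or lower on the 0 h array, as did 279 of all 4997 genes. They were 9 of the 30 and 60 of the 65. The division was close for some genes, such as CEM1, with a later mean of 0.65 and an early mean of -0.60. The later mean was within 0.5 of the reference in 59 and at least 2-fold above it in 17. All 10 of the lower genes had the later mean farther from the reference, and all 10 were within 0.5 of it at 0 h.

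**Figure D1:**
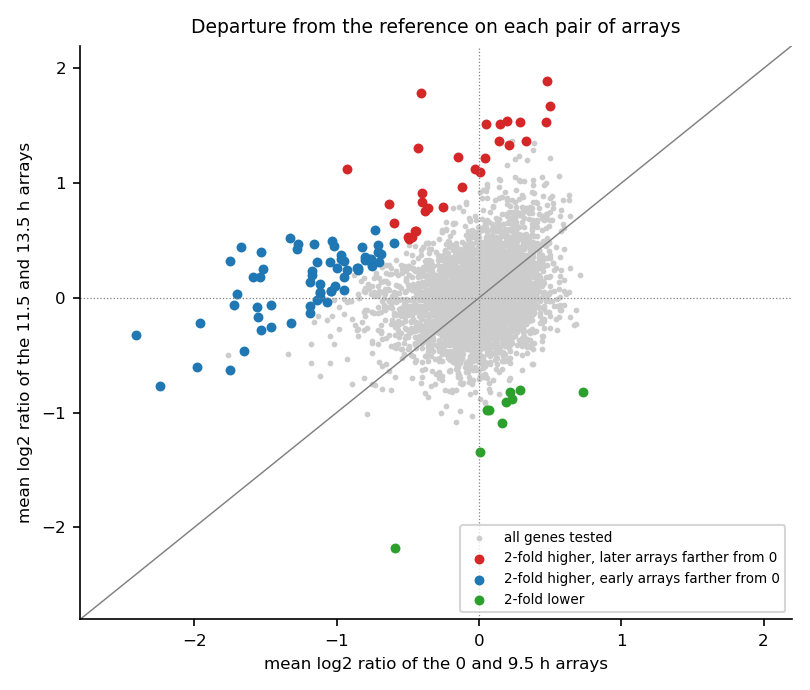
Mean log2 ratio of the 11.5 h and 13.5 h arrays (vertical) against the mean of the 0 h and 9.5 h arrays (horizontal), 1 point per gene for 4997 genes, with the line of equal values. The 30 red genes lie high on the vertical axis, the 65 blue genes lie left of 0 on the horizontal axis and near 0 on the vertical one, and the 10 green genes lie low on the vertical axis.

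Of the genes above the reference on both later arrays, HSP30 and TPO2, for plasma membrane proteins, had the largest later means. HSP30 (YCR021C), which encodes a stress protein of the plasma membrane known to restrain the proton pump, had log2 ratios of 1.87 at 11.5 h and 1.70 at 13.5 h, against -0.75 at 0 h and -0.06 at 9.5 h. Its mean difference was 2.19 ± 0.24 (SE), or 4.58-fold, with an adjusted p of 0.0565 in limma. The later values stood far above both early ones, and the 0 h value was itself below the reference.

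TPO2 (YGR138C), an exporter of polyamines, stood at 2.06 at 11.5 h and 1.72 at 13.5 h, against 0.35 at 0 h and 0.61 at 9.5 h. It was higher at 11.5 h than at 13.5 h, and both later values stood well above the early ones. Its mean difference was 1.41 ± 0.19, with a limma adjusted p of 0.0565. After the glucose was nearly gone, at 18.5 h, TPO2 was at 0.60, while HSP30 was at 3.69. Both were counted in the list of eisosome and stress membrane proteins. There 8 of 11 measured members were above without overlap (28.9% of all genes) and 1 below (25.1%), with a median of 0.43. In the list of plasma membrane pumps and exporters 4 of 18 measured members were above and 9 below, with a median of -0.04.

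A few cell wall genes were also higher, although their list as a whole was not. SPI1 (YER150W), a glycosylphosphatidylinositol-anchored wall protein gene, was at 1.17 at 11.5 h and 1.87 at 13.5 h, against 0.05 at 0 h and 0.25 at 9.5 h, a mean difference of 1.37 ± 0.24. YGP1 (YNL160W), a secreted wall glycoprotein gene, was at 1.03 at 11.5 h and 1.71 at 13.5 h, against 0.31 at 0 h and 0.36 at 9.5 h. CWP1 (YKL096W), a wall mannoprotein gene, was at 1.28 at 11.5 h and 1.78 at 13.5 h, against 0.25 at 0 h and 0.70 at 9.5 h. In all 3 the 13.5 h value was the highest of the 4. WSC4 (YHL028W), a member of the family of wall stress sensors, was at 1.27 at 11.5 h and 1.19 at 13.5 h, against -0.34 at 0 h and 0.05 at 9.5 h, and it was named after its values were seen. At 20.5 h SPI1 stood at 3.65 and YGP1 at 3.06, while CWP1 stood at 0.25 and WSC4 at 0.73. In the list of cell wall and secreted mannoproteins 13 of 33 measured members were above without overlap (28.9% of all genes) and 5 below (25.1%), and the median difference was 0.03 against 0.01 over all genes.

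**Figure D2:**
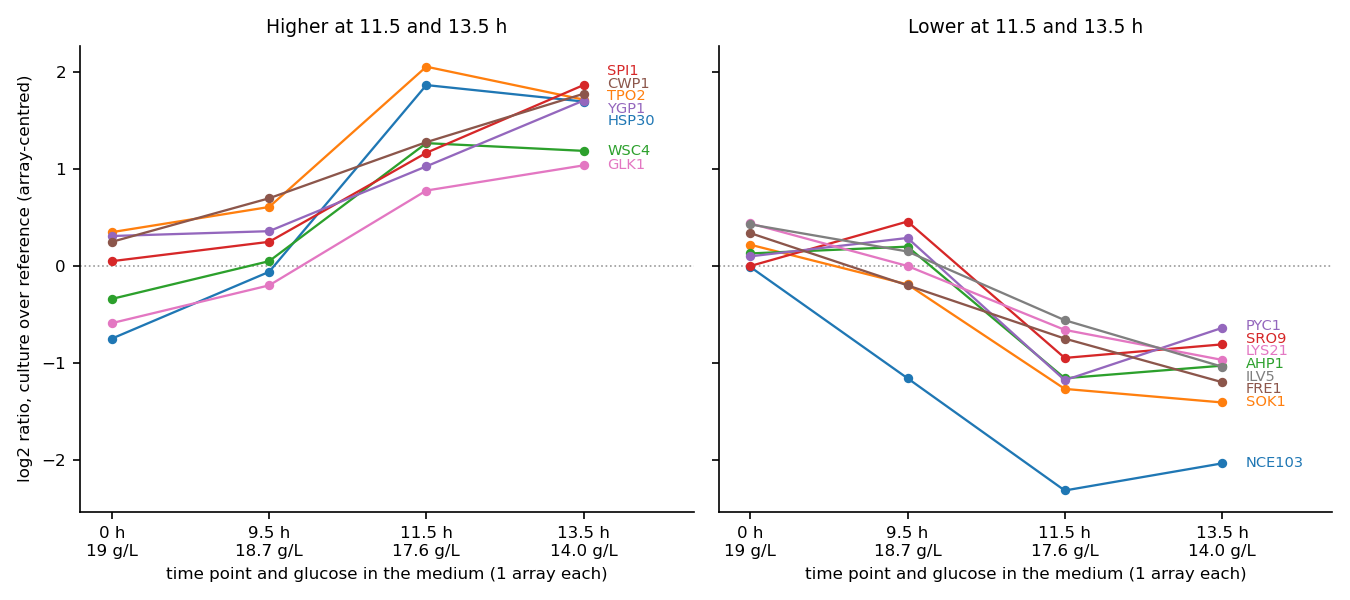
Log2 ratio of culture over reference on the 4 arrays (evenly spaced on the horizontal axis, with the glucose left in the medium), 1 line per gene and 1 array per time. The 7 genes on the left lie above their 0 h and 9.5 h values at both 11.5 h and 13.5 h, and the 8 on the right lie below them, with NCE103 at -2.32 and -2.04.

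Genes that bring in and phosphorylate glucose were also among those higher. HXT6 (YDR343C), a high-affinity hexose transporter gene, was at 1.21 at 11.5 h and 2.14 at 13.5 h, against 0.21 at 0 h and 0.79 at 9.5 h. Its near-identical neighbour HXT7 was at 0.86 and 1.73 at 11.5 h and 13.5 h, against 0.24 at 0 h and 0.52 at 9.5 h, and a spotted probe may not tell them apart. HXT4, another high-affinity transporter gene, was at 0.65 at 11.5 h and 1.44 at 13.5 h, against 0.03 at 0 h and 0.46 at 9.5 h. These 3 genes shared a pattern of a higher value at 13.5 h than at 11.5 h. HXT5, whose product is known from slow-growing cells, was equal on the later arrays, at 0.60 at 11.5 h and 0.61 at 13.5 h, against -0.16 at 0 h and -0.30 at 9.5 h.

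The low-affinity transporter genes HXT1 and HXT3 went opposite ways, each without overlap. HXT1 was at 0.57 at 11.5 h and 0.29 at 13.5 h, against 0.61 at 0 h and 0.60 at 9.5 h. HXT3 was at 0.99 and 0.80 at 11.5 h and 13.5 h, against 0.31 at 0 h and 0.72 at 9.5 h. HXT2 overlapped, at 0.45 at 11.5 h and -0.11 at 13.5 h, against 0.31 at 0 h and 0.37 at 9.5 h. Of 11 hexose transporter genes measured, 6 were above without overlap (28.9% of all genes), 1 was below (25.1%), and the median difference was 0.38. HXT10 was among the 2-fold higher genes with a difference of 1.12, but it was only at 0.21 at 11.5 h and -0.26 at 13.5 h, against -1.34 at 0 h and -0.95 at 9.5 h. Against the reference channel its later mean was -0.02, so it stood at the reference and its difference lay in the low early values. GLK1 (YCL040W), the glucokinase gene, was at 0.78 at 11.5 h and 1.04 at 13.5 h, against -0.59 at 0 h and -0.20 at 9.5 h (mean difference 1.31 ± 0.19, limma adjusted p = 0.0608). The hexokinase gene HXK1 had its high value at 13.5 h alone, at 1.21 against 0.28 at 11.5 h, while HXK2, the main hexokinase gene on glucose, was at 0.41 at 11.5 h and -0.04 at 13.5 h, against 0.56 at 0 h and 0.59 at 9.5 h.

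Genes of glucose sensing and repression went both ways, and none passed the test. MIG1 (YGL035C), the zinc finger repressor of glucose-repressed genes, was at -0.37 at 11.5 h and -0.48 at 13.5 h, against 0.29 at 0 h and 0.43 at 9.5 h, a mean difference of -0.78 ± 0.15 (limma adjusted p = 0.0841). MIG2, its partner repressor, was at -0.78 at 11.5 h and -0.51 at 13.5 h, against 0.25 at 0 h and 0.03 at 9.5 h. RGT1, the repressor of hexose transporter genes, was at -0.39 and -0.24 at 11.5 h and 13.5 h, against 0.10 at 0 h and 0.12 at 9.5 h. In these 3 genes the later values did not overlap the early ones. MIG3, the third Mig repressor gene, did overlap, at 0.37 at 11.5 h and -0.57 at 13.5 h, against -0.69 at 0 h and -0.19 at 9.5 h. The corepressor gene TUP1 had a difference of -0.11 with overlap. CYC8, the other gene of that corepressor, was lower without overlap, at -0.10 at 11.5 h and -0.05 at 13.5 h, against 0.24 at 0 h and 0.56 at 9.5 h. MTH1, which encodes a corepressor that works with Rgt1, was on the other side, at 0.40 at 11.5 h and 0.37 at 13.5 h, against -0.28 at 0 h and 0.08 at 9.5 h. The list as a whole had 2 of 20 measured members above (28.9% of all genes) and 6 below (25.1%) without overlap, a share below that is near the one over all genes, with a median of -0.10. The kinase gene SNF1 and its gamma subunit gene SNF4 had differences of -0.07 and -0.15. MSN2 (YMR037C), the general stress activator gene, was at -1.09 at 11.5 h and -0.92 at 13.5 h, against -0.09 at 0 h and -0.45 at 9.5 h. It belongs to another list, that of carbon regulators. There 7 of 22 measured members were above without overlap (28.9% of all genes) and 7 below (25.1%), with a median of -0.08.

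Some of the other genes higher on both later arrays serve metabolism and the membrane, and those in the next sentences were named after their values were seen. GAD1 (YMR250W), the glutamate decarboxylase gene, was at 1.01 at 11.5 h and 2.08 at 13.5 h, against -0.02 at 0 h and 0.42 at 9.5 h. The alkaline ceramidase gene YDC1 was at 1.29 at 11.5 h and 1.36 at 13.5 h, against 0.12 at 0 h and 0.29 at 9.5 h. The other ceramidase gene, YPC1, was at 0.38 at 11.5 h and 1.30 at 13.5 h, against -0.35 at 0 h and -0.44 at 9.5 h. PIC2, a mitochondrial phosphate and copper carrier gene, was at 0.97 at 11.5 h and 1.77 at 13.5 h, against -0.16 at 0 h and 0.43 at 9.5 h. MSC1 was at 1.04 and 2.01 at 11.5 h and 13.5 h, against -0.02 at 0 h and 0.13 at 9.5 h. CIP1, a gene for an inhibitor of the cell cycle kinase, was highest at 11.5 h, at 1.54, with 0.90 at 13.5 h, against 0.03 at 0 h and 0.06 at 9.5 h.

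The median of these 30 genes was also above the reference later in the course, though not every gene was. Their medians were 0.99 at 11.5 h and 1.19 at 13.5 h, against -0.27 at 0 h and -0.01 at 9.5 h, which follows in part from how they were chosen. On arrays that played no part in the choice the 15.5 h median was 1.46, and the 18.5 h and 20.5 h medians were 1.68 and 1.69. At 15.5 h, with 7.5 g/L glucose left, 20 of the 30 were at least 2-fold above the reference, where 3.54% of all genes tested were. On the arrays that chose them 15 were so at 11.5 h and 19 at 13.5 h. The 15.5 h array shares the reference and correlated with the 13.5 h array (r = 0.72), so its high share is not independent of the choice. GTB1 stood at -0.56 at that time, and at 20.5 h CIP1 was at 0.08 and DIA1 at -0.07.

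The 65 genes that had been low on the early arrays gave a different picture. Their medians were 0.35 at 11.5 h and 0.02 at 13.5 h, against -0.94 at 0 h and -1.16 at 9.5 h. On the arrays outside the comparison the median was -0.23 at 15.5 h, and then 0.85 and 0.75 at the last times. At 15.5 h 20 of the 64 with a value were at -0.5 or lower, as were 591 of 4939 genes tested, 0 were 2-fold above the reference (3.54% of all), and 23 were above 0 (51.1% of all). These genes make up much of the difference between the pairs of arrays without standing far from the reference at 11.5 h or 13.5 h. A part played by the arrays themselves was not tested.

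AGP2 (YBR132C), which encodes a plasma membrane regulator of polyamine and carnitine uptake, belongs to this set and was the 1 gene that passed. It rose by 2.11 ± 0.18 (4.32-fold, limma adjusted p = 0.0400), with 0.55 at 11.5 h and 0.33 at 13.5 h, against -1.50 at 0 h and -1.84 at 9.5 h. Most of that distance lay below the reference on the early arrays, including the one with the same label in both channels. It also passed with any 1 array left out, but not when the later arrays were set against the reference channel, where its mean was 0.44 with an adjusted p of 0.0994 in limma, nor in a fit on the glucose consumed, where no gene passed.

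Among the other large differences most had early values far below the reference. STR3, a cystathionine beta-lyase gene of methionine metabolism, was at -0.07 at 11.5 h and -0.58 at 13.5 h, against -1.32 at 0 h and -3.49 at 9.5 h, and it was at -4.19 at 15.5 h. MFM1, a mitochondrial magnesium transporter gene, was at 0.38 at 11.5 h and 0.25 at 13.5 h, against -0.83 at 0 h and -2.67 at 9.5 h. PKP2, a kinase gene of pyruvate dehydrogenase, was at 0.54 at 11.5 h and 0.40 at 13.5 h, against -0.94 at 0 h and -1.60 at 9.5 h. In YPS6, a surface protease gene, the later mean was the farther from the reference, with 0.90 at 11.5 h and 1.34 at 13.5 h, against -0.27 at 0 h and -1.59 at 9.5 h. The remaining genes among the 12 largest higher differences were HMS1 at 1.93, YPK2 at 1.85, RCK1 and PCL10 at 1.77, SPO74 at 1.74 and GSY1 at 1.73. GSY1 also had the later mean farther from the reference, and each of the others had at least 1 early value under -1.5. Single genes for functions not called for in growth on glucose appear here too. The sporulation gene SPO74 was at 0.06 at 11.5 h and -0.50 at 13.5 h, against -2.33 at 0 h and -1.59 at 9.5 h. The mating gene FIG1 was at 0.05 and -0.04 at 11.5 h and 13.5 h, against -1.15 at 0 h and -1.08 at 9.5 h. In the haploid mating list 7 of 24 were above without overlap, near the 28.9% of all genes, and 2 below (25.1%). Its median was 0.08. In the list of meiosis and sporulation 10 of 21 were above and 1 below, with a median of 0.30.

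Of the 10 lower genes, NCE103 (YNL036W), the carbonic anhydrase gene that supplies bicarbonate for carboxylation, was the farthest from the reference. It was at -2.32 at 11.5 h and -2.04 at 13.5 h, against -0.01 at 0 h and -1.16 at 9.5 h, a mean difference of -1.59 ± 0.35 with a limma adjusted p of 0.0987. It was thus already below the reference at 9.5 h. PYC1 (YGL062W), a pyruvate carboxylase gene whose enzyme uses bicarbonate, was at -1.18 at 11.5 h and -0.64 at 13.5 h, against 0.10 at 0 h and 0.29 at 9.5 h. Both stood on the other side of the reference by the end of the course: at 15.5 h, 18.5 h and 20.5 h the values were -2.44, 1.11 and 1.28 for NCE103, and -0.56, -0.91 and 2.04 for PYC1.

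AHP1 (YLR109W), a thiol peroxiredoxin gene, was at -1.16 at 11.5 h and -1.03 at 13.5 h, against 0.13 at 0 h and 0.20 at 9.5 h (mean difference -1.26 ± 0.15, limma adjusted p = 0.0565). The values of each pair were close, and at 15.5 h AHP1 was back at the reference, within 0.01. Its list, that of antioxidant enzymes, went more the other way. There 10 of 18 measured members were above without overlap (28.9% of all genes) and 3 below (25.1%), with a median of 0.29. SOK1 (YDR006C), known for rescuing cells that lack protein kinase A, was at -1.27 at 11.5 h and -1.41 at 13.5 h, against 0.22 at 0 h and -0.19 at 9.5 h. SRO9, an RNA-binding protein gene, was at -0.95 at 11.5 h and -0.81 at 13.5 h, against -0.00 at 0 h and 0.46 at 9.5 h. FRE1, a metal reductase gene of the cell surface, was at -0.75 and -1.20 at 11.5 h and 13.5 h, against 0.34 at 0 h and -0.20 at 9.5 h. AHC1, a subunit gene of a histone acetyltransferase complex, was at -0.83 and -1.13 at 11.5 h and 13.5 h, against 0.24 at 0 h and -0.13 at 9.5 h. BSC1 had its low value at 13.5 h alone, at -1.48 against -0.15 at 11.5 h, with 0.19 at 0 h and 1.27 at 9.5 h. At 15.5 h 9 of the 10 were below 0, as were 48.7% of all genes tested.

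The remaining lower genes belong to amino acid synthesis. LYS21 (YDL131W), a homocitrate synthase gene of lysine synthesis, was at -0.66 at 11.5 h and -0.97 at 13.5 h, against 0.44 at 0 h and a value within 0.01 of 0 at 9.5 h. Its paralog LYS20 was at -1.02 at 11.5 h and -1.14 at 13.5 h, against 0.15 at 0 h and -0.47 at 9.5 h, and LYS2, for a later step, was at -0.56 and -0.59 at 11.5 h and 13.5 h, against 0.22 at 0 h and 0.53 at 9.5 h. LYS20 and LYS21 are close in sequence, so their probes may share signal. ILV5, of branched-chain amino acid synthesis, was at -0.56 at 11.5 h and -1.04 at 13.5 h, against 0.43 at 0 h and 0.15 at 9.5 h. Of 41 measured genes of amino acid biosynthesis 22 were below without overlap (25.1% of all genes) and 4 above (28.9%), with a median of -0.25. In the purine and one-carbon list the members went both ways, 8 above (28.9% of all genes) and 6 below (25.1%) of 17, with ADE2 at 0.91 at 11.5 h and 0.84 at 13.5 h, against 0.08 at 0 h and 0.19 at 9.5 h.

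The second question was whether the 11.5 h and 13.5 h arrays agree. Differences that share an array move together by construction, so the arrays were paired without sharing: 11.5 h minus 0 h with 13.5 h minus 9.5 h, and 11.5 h minus 9.5 h with 13.5 h minus 0 h. Across 4997 genes, which are not independent replicates and which share arrays and a reference, r was 0.50 (rho 0.48) in the first pairing and 0.48 (rho 0.47) in the second. The sign was the same in 66.46% and 66.10% of genes. In the first pairing 46 genes were at least 2-fold higher in both differences, out of 149 by 11.5 h and 131 by 13.5 h, and 2 were 2-fold lower in both, out of 18 and 66. No gene was 2-fold higher in one and 2-fold lower in the other, in either pairing. Among the 4665 genes within 0.5 of the reference at 0 h, r was 0.45 and 0.41, and 12 and 7 genes were 2-fold higher in both, a restriction added after seeing the data. The early arrays correlate with each other, and their shared deviations enter both sides of each pairing.

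**Figure D3:**
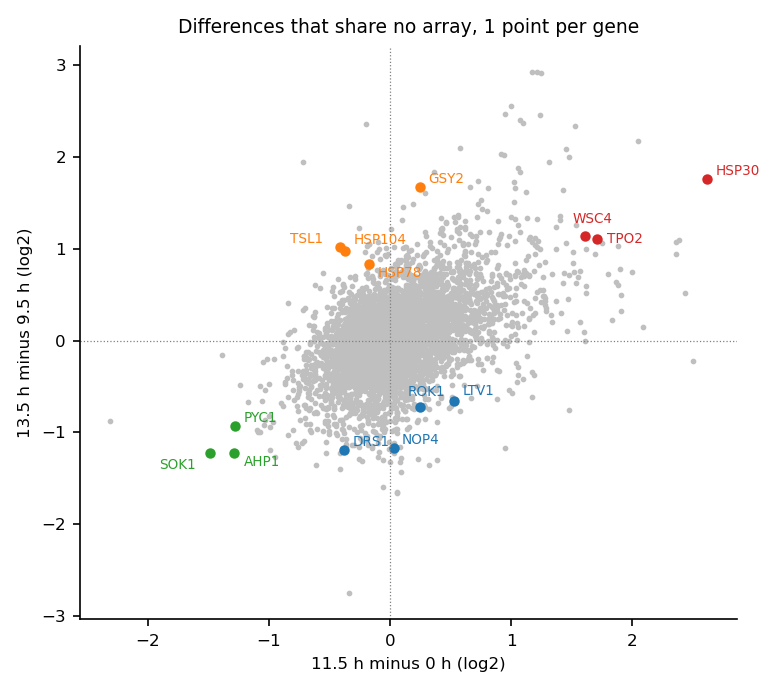
Difference of the 13.5 h and 9.5 h arrays (vertical, log2) against that of the 11.5 h and 0 h arrays (horizontal, log2), 1 point per gene, with r = 0.50 over 4997 genes. HSP30, TPO2 and WSC4 are high on both axes and SOK1, AHP1 and PYC1 low on both, while GSY2, TSL1, HSP104 and HSP78 are high and NOP4, DRS1, ROK1 and LTV1 low on the 13.5 h axis only.

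Direct comparison of 13.5 h with 11.5 h, 1 array against 1 with no test, put 20 genes at least 2-fold higher at 13.5 h (0.4% of those tested) and 22 at least 2-fold lower (0.44%). The 5 largest on the higher side were GSY2 at 1.72, GSY1 at 1.60, IRC18, HSP104 at 1.37 and HSP78 at 1.33, where IRC18 stood at 0.18 at 13.5 h and -1.33 at 11.5 h. On the lower side they were SAM4 at -2.57, PHO89 at -1.51, BSC1 at -1.32, NOP4 at -1.30 and YFR018C at -1.30. SAM4, a homocysteine methyltransferase gene, was at 0.08 at 13.5 h and 2.65 at 11.5 h, with 0.15 at 0 h and 0.30 at 9.5 h, so it was high on 1 array. PHO89, a phosphate transporter gene, was at -0.96 at 13.5 h and 0.55 at 11.5 h. The 20 higher genes had medians of 1.22 at 13.5 h and 0.03 at 11.5 h. On arrays that did not choose them, but share the reference, the median was 1.34 at 15.5 h, followed by 2.72 and 2.75 at the last times. The 22 lower genes had medians of -0.83 at 13.5 h and 0.38 at 11.5 h, and -0.69 at 15.5 h, with -0.05 and -0.16 at the last times.

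Of the 45 lists, that of the reserve carbohydrate genes had the largest median difference between 13.5 h and 11.5 h. In the list of glycogen and trehalose genes 12 of 17 measured members were higher at 13.5 h than at 11.5 h by 0.5 or more, where 4.66% of all genes were, and 0 were lower by as much (7.82%). The median of that difference was 0.77, with list medians of 0.89 at 13.5 h and 0.24 at 11.5 h, beside 0.13 at 0 h and 0.10 at 9.5 h. GSY2 (YLR258W), the main glycogen synthase gene, was at 2.10 at 13.5 h and 0.38 at 11.5 h, and GSY1 (YFR015C), the other, at 2.11 and 0.51 at those times. PGM2, which supplies glucose 1-phosphate, was at 2.01 at 13.5 h and 0.69 at 11.5 h, and UGP1, which makes UDP-glucose from it, at 1.36 and 0.74. GLC3, the branching enzyme gene, was at 1.11 at 13.5 h and 0.46 at 11.5 h, against -0.25 at 0 h and -0.03 at 9.5 h.

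The trehalose genes were also higher at 13.5 h than at 11.5 h. TSL1 and TPS2, subunits of the trehalose synthase complex, were at 1.29 and 1.26 at 13.5 h and at -0.04 and 0.14 at 11.5 h. TPS1 was at 0.77 at 13.5 h and -0.15 at 11.5 h, and TPS3 at 0.46 and -0.49. Genes that break the reserves down were higher at 13.5 h too: the trehalase genes NTH1 and NTH2 were at 1.11 and 0.89 at 13.5 h and at 0.35 and 0.41 at 11.5 h. The glycogen phosphorylase gene GPH1 was at 0.32 at 13.5 h and -0.27 at 11.5 h, and the debranching enzyme gene GDB1 at 0.43 and -0.35. PGM1, the minor phosphoglucomutase gene, was the other way, at -0.01 at 13.5 h and 0.35 at 11.5 h. Since the 11.5 h values of most members lay near the early ones, the later-minus-early median of the list was 0.36, with 8 of 17 above without overlap (28.9% of all genes) and 0 below (25.1%).

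Heat shock and stress genes differed in the same direction between the later arrays. Of 16 measured heat shock and chaperone genes, 7 were higher by 0.5 or more at 13.5 h (4.66% of all genes) and 0 were lower by as much (7.82%), with a median of 0.37. HSP104, the disaggregase gene, was at 1.07 at 13.5 h and -0.30 at 11.5 h, and HSP78, its mitochondrial counterpart, at 0.98 and -0.35, while the early arrays had both within 0.2 of the reference. HSP12, a small membrane-associated stress protein gene, was at 1.77 at 13.5 h and 0.54 at 11.5 h, and HSP42, a small heat shock protein gene, at 1.18 and 0.32. SSA2, a constitutive Hsp70 gene, was lower on both later arrays, at -0.41 at 11.5 h and -0.20 at 13.5 h, against 0.29 at 0 h and 0.32 at 9.5 h. Against the early arrays the list had 3 members above (28.9% of all genes), 5 below (25.1%) and 8 overlapping, with a median of 0.15, so its members did not share a direction there.

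**Figure D4:**
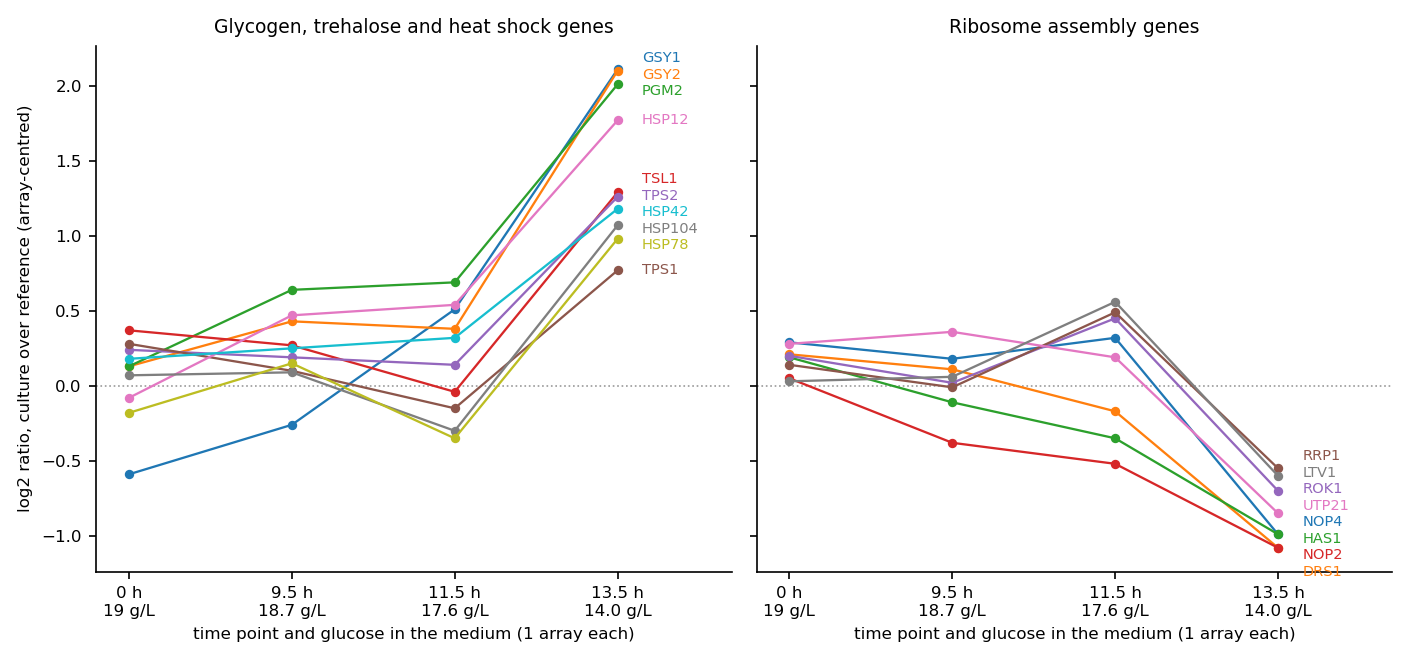
Log2 ratio of culture over reference on the 4 arrays (evenly spaced, with the glucose left in the medium), 1 line per gene and 1 array per time. The reserve carbohydrate and heat shock genes on the left lie between 0.77 and 2.11 at 13.5 h and at 0.69 or lower at 11.5 h, and the 8 ribosome assembly genes on the right lie between -1.08 and -0.55 at 13.5 h.

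Ribosome assembly genes were a block that was lower at 13.5 h. Of 40 measured genes of ribosome biogenesis, 39 were lower at 13.5 h than at 11.5 h (50.3% of all genes), 1 was higher (49.7%) and 25 were lower by 0.5 or more (7.82% of all genes), with a median of -0.60. Their medians were -0.53 at 13.5 h and 0.05 at 11.5 h, beside 0.15 at 0 h and 0.00 at 9.5 h. NOP4, a nucleolar RNA-binding protein gene for the large subunit, was at -0.99 at 13.5 h and 0.32 at 11.5 h. The helicase genes DRS1 and ROK1 were at -1.08 and -0.70 at 13.5 h and at -0.17 and 0.45 at 11.5 h. LTV1, an export factor gene for the small subunit, was at -0.60 at 13.5 h and 0.56 at 11.5 h, with 0.03 at 0 h and 0.06 at 9.5 h, and it was the 1 gene of 4997 on opposite sides of the early mean by 0.5 or more on both arrays. NOP2, an rRNA methyltransferase gene, was lower on both, at -1.08 at 13.5 h and -0.52 at 11.5 h. The repressor gene TOD6, known to act on ribosome biogenesis genes, was also low, at -1.39 at 13.5 h and -0.30 at 11.5 h.

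The ribosomal protein genes did not share this step. Their median difference between 13.5 h and 11.5 h was -0.02 over 107 genes, with 0 higher and 2 lower by 0.5 or more. Against the early arrays 41 were below without overlap and 9 above, where 25.1% and 28.9% of all genes were, and the median was -0.12. RPS11A was at -0.29 at 11.5 h and -0.59 at 13.5 h, against 0.20 at 0 h and 0.06 at 9.5 h. RPS27B went the other way, at 0.43 at 11.5 h and 0.24 at 13.5 h, against -0.26 at 0 h and -0.27 at 9.5 h. Many of these genes come in near-identical pairs that a spotted probe may not tell apart.

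Other lists of the protein synthesis machinery lay between these cases in the difference of 13.5 h from 11.5 h. Its median was -0.31 for aminoacyl-tRNA synthetases, -0.29 for translation factors and -0.28 for RNA polymerases I and III. Against the early arrays, 13 of 17 measured aminoacyl-tRNA synthetase genes were below without overlap (25.1% of all genes) and 0 above (28.9%). Their median there was -0.36, the lowest of the 45 lists. MES1, for methionine, was at -0.10 at 11.5 h and -0.56 at 13.5 h, against 0.50 at 0 h and 0.40 at 9.5 h, and ALA1, for alanine, at -0.05 and -0.47, against 0.50 at 0 h and 0.51 at 9.5 h. These genes stood above the reference on the early arrays and near or below it on the later ones. Of 35 translation factor genes 18 were below (25.1% of all genes) and 1 above (28.9%), with a median of -0.28. PRT1, a subunit gene of initiation factor eIF3, was at -0.44 at 11.5 h and -0.70 at 13.5 h, against 0.44 at 0 h and 0.01 at 9.5 h. Of 16 subunit genes of the RNA polymerases I and III, 7 were below and 0 above, beside the same shares of all genes, with a median of -0.27, among them the shared subunit gene RPC40 at 0.02 at 11.5 h and -0.48 at 13.5 h, against 0.35 at 0 h and 0.31 at 9.5 h.

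**Figure D5:**
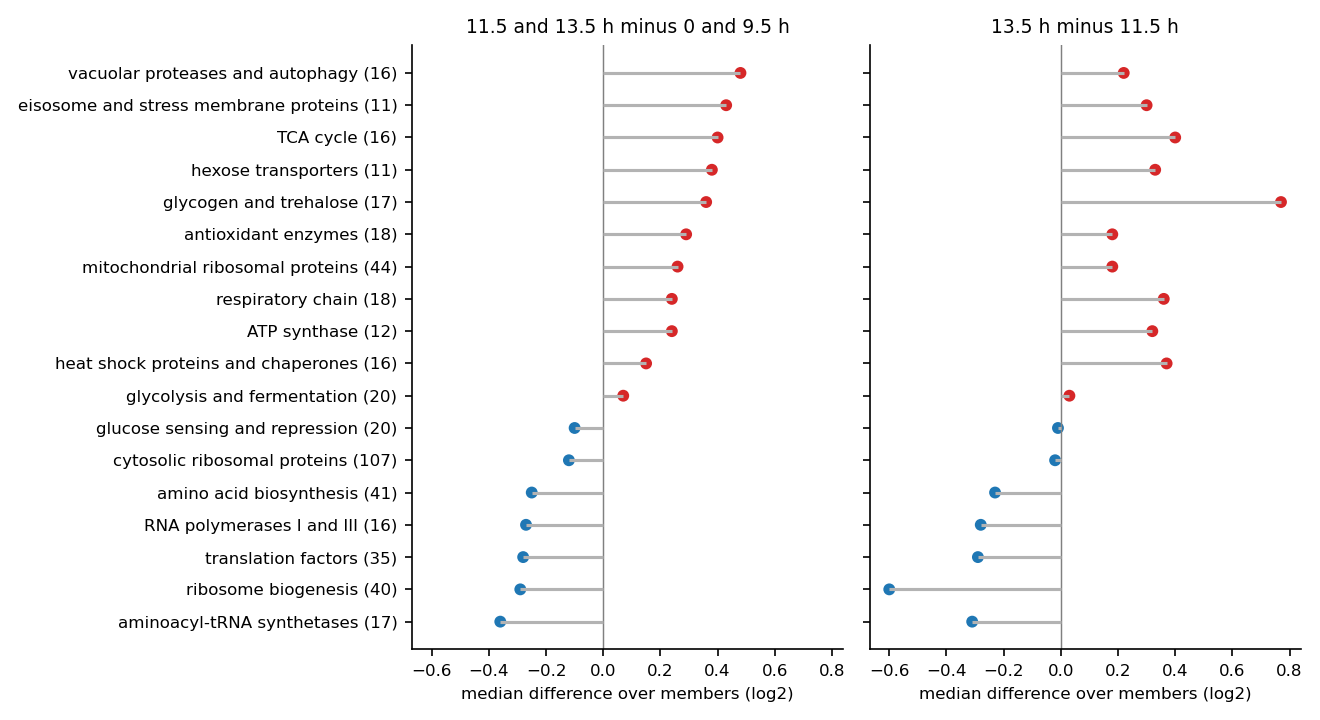
Median difference (log2) over the measured members of 18 gene lists, with the number of members in brackets, for the later minus the early arrays (left) and for 13.5 h minus 11.5 h (right). Glycogen and trehalose genes have 0.77 and ribosome biogenesis genes -0.60 in the right panel, and over all genes the medians are 0.01 on the left and within 0.01 of 0 on the right.

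By list median, TCA cycle and ATP synthase genes were slightly higher on both later arrays, and respiratory chain genes at 13.5 h alone. Of 16 TCA cycle genes 11 were above without overlap and 0 below (28.9% and 25.1% of all genes), with a median difference of 0.40. Subunit genes of succinate dehydrogenase were among them: SDH4 was at 0.52 at 11.5 h and 1.15 at 13.5 h, against -0.10 at 0 h and -0.09 at 9.5 h, and SDH2 was at 0.43 and 1.31, against 0.01 at 0 h and 0.10 at 9.5 h. LSC2, a succinyl-CoA ligase gene, was at 0.75 at 11.5 h and 1.18 at 13.5 h, against 0.08 at 0 h and 0.21 at 9.5 h. The aconitase gene ACO1 was at 1.26 at 13.5 h but at 0.41 at 11.5 h, against 0.26 at 0 h and 0.56 at 9.5 h, and so overlapped.

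In the respiratory chain 9 of 18 measured genes were above without overlap (28.9% of all genes) and 0 below (25.1%), with a median of 0.24. In the ATP synthase they were 7 of 12 and 0, with a median of 0.24. Their list medians at 13.5 h, 0.38 and 0.43, were higher than at 11.5 h, 0.08 and 0.21. The early medians were 0.10 at 0 h and 0.08 at 9.5 h for the respiratory chain. For the ATP synthase they were 0.04 at 0 h and 0.07 at 9.5 h. COX5B, the hypoxic form of a cytochrome c oxidase subunit gene, was at 0.68 at 11.5 h and 1.37 at 13.5 h, against -0.02 at 0 h and 0.32 at 9.5 h. COX5B was counted in another list, that of anaerobic and hypoxic genes. There 4 of 15 measured members were above without overlap (28.9% of all genes) and 6 below (25.1%), with a median of -0.20. STF2, listed with the ATP synthase as a stabilising factor gene, was at 0.46 at 11.5 h and 1.39 at 13.5 h. The subunit gene ATP5 was at 0.62 at 11.5 h and 0.51 at 13.5 h, against -0.12 at 0 h and 0.06 at 9.5 h. Mitochondrial ribosomal protein genes had 27 of 44 above (28.9% of all genes) and 1 below (25.1%), with a median of 0.26, among them MRPL49 at 0.43 at 11.5 h and 0.35 at 13.5 h, against -0.27 at 0 h and -0.44 at 9.5 h.

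Vacuolar protease and autophagy genes had the highest median of the 45 lists, 0.48, with 11 of 16 above without overlap (28.9% of all genes) and 0 below (25.1%). PRC1, the carboxypeptidase Y gene, was at 1.01 at 11.5 h and 1.43 at 13.5 h, against 0.26 at 0 h and 0.74 at 9.5 h. PBI2, a protease inhibitor gene, was at 0.45 at 11.5 h and 1.06 at 13.5 h, against -0.01 at 0 h and -0.22 at 9.5 h, and the aminopeptidase gene APE1 was at 0.47 and 1.23, against -0.01 at 0 h and 0.23 at 9.5 h. ATG7, for the enzyme that activates the autophagy conjugates, was at 0.51 at 11.5 h and 0.39 at 13.5 h, against -0.54 at 0 h and -0.37 at 9.5 h. ATG8, the autophagosome marker gene, was at 0.01 at 11.5 h and 0.56 at 13.5 h, against -0.32 at 0 h and -0.05 at 9.5 h. Some of these differences thus come from genes under the reference early, ATG7 among them.

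Genes for other carbon sources went both ways against the reference. The list for gluconeogenesis, the glyoxylate cycle and the use of ethanol and acetate had 6 of 15 members above without overlap (28.9% of all genes) and 1 below (25.1%), with a median of 0.22. Its member SFC1, a mitochondrial succinate and fumarate carrier gene, was at 0.87 at 11.5 h and 0.08 at 13.5 h, against -0.75 at 0 h and -0.44 at 9.5 h. The galactose and maltose list had a median difference of 0.35, but 0.07 over its 6 members within 0.5 of the reference at 0 h. MAL33 was at 0.68 at 11.5 h and -0.16 at 13.5 h, against -1.12 at 0 h and -0.89 at 9.5 h. ACS1, an acetyl-CoA synthetase gene for growth on acetate and ethanol, was at -0.24 at 11.5 h and -0.01 at 13.5 h, against -1.07 at 0 h and -0.54 at 9.5 h, so it was still at or below the reference. POT1, the peroxisomal thiolase gene, was at 0.06 at 11.5 h and -0.62 at 13.5 h, against -1.82 at 0 h and -1.23 at 9.5 h. The glycolysis and fermentation list had a median of 0.07, with 6 of 20 above (28.9% of all genes) and 3 below (25.1%).

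Cell cycle genes that did not overlap were more often below than above, with list medians near 0. In the list of G1/S and DNA replication genes, 15 of 38 were below without overlap (25.1% of all genes) and 2 above (28.9%), with a median of -0.10. In the list of mitosis and mitotic exit 11 of 20 were below and 3 above, also with a median of -0.10. The cyclin gene PCL2 was at -0.76 at 11.5 h and -0.49 at 13.5 h, against 0.21 at 0 h and 0.40 at 9.5 h, and the G1 cyclin gene CLN2 was at -0.55 and -0.59, against 0.04 at 0 h and 0.01 at 9.5 h. MCM7, for a subunit of the replicative helicase, was at -0.61 at 11.5 h and -0.62 at 13.5 h, against 0.23 at 0 h and a value within 0.01 of 0 at 9.5 h. CLN2 and MCM7 were about equal on the later arrays, while PCL2 was lower at 11.5 h than at 13.5 h. Of the 45 lists, 6 had a median of 0.3 or more, 1 of -0.3 or lower, and 38 lay between.

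Set against the reference channel in place of the early arrays, the later arrays gave other members. In that limma test 201 genes were higher (4.02%) and 115 lower (2.3%), and the same test of the early arrays gave 215 higher (4.3%) and 461 lower (9.23%). By size, 34 genes had a later mean at least 2-fold above the reference, and 17 of them (17 of 34, and 17 of the 95) were also 2-fold higher than the early arrays. Of 7 genes 2-fold below the reference 3 were also among the 10. TPO2 led the 34 with a later mean of 1.89, followed by HSP30 at 1.79, HXT6 at 1.67 and GAD1 at 1.54. Members of the 34 that were not 2-fold above the early arrays included the glycine cleavage gene GCV1, at 0.83 at 11.5 h and 1.56 at 13.5 h, against 0.04 at 0 h and 0.63 at 9.5 h.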

How the data were processed

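Total RNA of a culture and of a common reference was compared on 2-colour arrays, 1 per time point. Per the labels, scanning used ScanAlyze version 2.41; the sources used here do not say how background, dyes and weak spots were treated or which genome build was used. The authors deposited log ratios of the channels in 1 table, taken as log2 because ratios of small whole numbers left 26 values at the 50 places they would take in log2, against 9.5 interpolated from neighbouring places (natural log 48 against 43.0, log10 393 against 384.12). Any centring by the authors is unstated. The medians of the 4 deposited arrays lay between -0.007 and 0.027.

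The median over the 6048 to 6329 probes with a value was subtracted from each array. Of 6400 probes, 5548 had 1 gene symbol, matched to a RefSeq table, 852 had none, and 0 had several. Spots of 75 genes were averaged. Of 5470 genes 473 had a blank on an array and were left out. Ratios carry no signal level, and the number of arrays limits the precision.

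Later and early arrays were compared by lmFit and eBayes of limma 3.58.1 (R 4.3.3), 2 later against 2 early arrays with 2 residual and 5.02 prior degrees of freedom, a median SE of 0.17 and a threshold of 0.05 after Benjamini-Hochberg adjustment. For 1 gene an exact permutation test of 2 arrays against 2 cannot go below p = 0.333 (2-sided). The script was tested on simulated data. A call by size needed a difference of 1 and no overlap of the 4 values.

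The comparison and the 45 gene lists were chosen with earlier results of these data known. The text names the 12 largest differences in each direction (called genes first, then by size; 10 existed on the lower side), up to 4 members with the largest difference from each list, the 5 largest in each direction between 13.5 h and 11.5 h, genes on opposite sides at those times, and members of the reserve carbohydrate, hexose transporter and glucose sensing lists. An item that the rule takes is not reported here. Further genes named for their values include the rest of the 30 and of the 34 described, and ACO1, ATG8 and PRC1. Alternatives covered centring, quantile normalization, spot choice, blanks, the reference channel as baseline, robust moderation, a slope on glucose, thresholds and leaving out each array.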

Additional observations from a re-analysis of the deposited data

Results flagged for a closer look

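The probes that carry no gene symbol took no part in the comparisons above. Of these 852 probes, 722 had a value on all 4 arrays. Among them 3 were at least 2-fold higher at 11.5 h and 13.5 h without overlap, and 4 were at least 2-fold lower. Of the 3 higher probes 2 lay within 0.5 of the reference at 0 h. At 0 h, where both channels bear 1 label, 3 of the unnamed probes were 2-fold below the reference and 1 was above it. They were drawn to attention as signal outside the genes measured.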

How the results depend on the processing

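No paired analysis was possible because each time point was 1 array and the labels give no replicate numbers. The 1 higher and 0 lower genes of the limma test became 29 and 8 after quantile normalization, 13 and 2 with robust moderation, 2 and 1 with genes that had at least 1 value in each pair, 110 and 25 at an adjusted p under 0.1, 201 and 115 against the reference channel, and 215 and 461 when the early arrays were set against it (added after seeing the data). Centring within runs of 40 probe IDs gave 2 higher and a slope on glucose consumed 0. Leaving out 1 array gave 20 to 259 higher and 2 to 211 lower, with 1 residual degree of freedom and the lone array of a pair assumed to vary like the rest. The 95 and 10 genes by size became 63 and 29 after quantile normalization and 353 and 133 at 1.5-fold. The 95 became 34 against the reference channel, 26 among genes within 0.5 of it at 0 h, and 100 to 126 with 1 array left out, where the 10 became 13 to 50. At 1.5-fold 425 genes, not 42, differed between 13.5 h and 11.5 h. The lists with a median of 0.3 or more in size were 7, and 6 to 16 with 1 array left out. The agreement of 0.50 in the first pairing stayed between 0.45 and 0.53. In the second pairing it lay between 0.41, among genes within 0.5 of the reference at 0 h, and 0.49. Deposited values without centring and the spot with the lowest probe ID moved no count by over 1.5 times. Among the 2-fold higher genes picked for naming, the later mean was below the reference channel for DAK2 (-0.04), HAP5 (-0.63) and HXT10 (-0.02). It was also below for POT1 (-0.28), SPO74 (-0.22), STR3 (-0.33) and SUT1 (-0.46). Others of the 95 had a later mean below the reference too, such as SEO1 (-0.77) and YGL138C (-0.60). The cause was not tested. AGP2, the only gene with a limma call, lost it against the reference channel. By size, 17 of the 95 higher genes and 3 of the 10 lower ones kept a call there. Signal over background could not be set beside any value, since ratios hold no level.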

Other observations

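OPI3 and CHO1, lipid genes that the comparisons above do not describe, also stood higher on both later arrays. OPI3, for the last methylations of phosphatidylcholine synthesis, was at 0.62 at 11.5 h and 1.21 at 13.5 h, against -0.06 at 0 h and 0.07 at 9.5 h, and CHO1, the phosphatidylserine synthase gene, was at 0.89 and 0.80, against 0.03 at 0 h and 0.37 at 9.5 h. OLE1, the fatty acid desaturase gene, was high at 11.5 h alone, at 1.40, with 0.30 at 13.5 h, against 0.39 at 0 h and 0.87 at 9.5 h. Its 13.5 h value was below both early ones. The list of fatty acid and phospholipid synthesis had 6 of 17 members above without overlap (28.9% of all genes) and 3 below (25.1%), with a median of 0.14.

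Genes of metal uptake were on the lower side in part, with 12 of 29 below without overlap (25.1% of all genes), 4 above (28.9%) and a median of -0.22. ZAP1, the zinc-responsive activator gene, was at -1.22 at 11.5 h and -0.77 at 13.5 h, against 0.02 at 0 h and -0.29 at 9.5 h. FTR1, the iron permease gene, was at -0.53 and -0.42 at 11.5 h and 13.5 h, against 0.21 at 0 h and 0.07 at 9.5 h. SKN7, a regulator gene of the oxidative stress response, was at -0.87 and -0.95 at 11.5 h and 13.5 h, against 0.16 at 0 h and -0.09 at 9.5 h.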
